A study of Mus musculus with 8 samples.

Results

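Cirbp encodes the cold-inducible RNA-binding protein, and 1 probe set of the 45101 on the array (1416332_at) carried it as its single annotated symbol, which made it 1 of 18193 measured genes. It was chosen because its values in these arrays were higher in leukemic than in normal mice in both sorted populations, so its levels and differences are given as a description, with standard errors and without a test. The 8 arrays measured messenger RNA in mouse marrow cells that carry CD45.1 and no BCR-ABL transgene, BCR-ABL being the fusion kinase of chronic myeloid leukaemia. HSC are the CD150+ CD48- part of the KSL gate (lineage negative, Kit+, Sca-1+), and KSL are that gate as a whole, so the HSC phenotype is contained in it.

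The groups were HSC from leukemic mice, HSC from normal mice, KSL from leukemic mice and KSL from normal mice, with 2 arrays in each. Leukemic mice were CD45.1+ hosts given CD45.1+ marrow mixed in equal cell numbers with CD45.2+ marrow of BCR-ABL x SCL-tTA transgenic donors. SCL-tTA expresses a tetracycline-controlled activator from regulatory sequences of the stem cell leukaemia gene, and taking tetracycline out of the drinking water switches BCR-ABL on. For normal mice the labels say only that BCR-ABL was absent, and whether their donors carried SCL-tTA is not stated in the sources at hand. The design text gives sorting 4 weeks after withdrawal for leukemic and control HSC, and no other time is given for KSL. CD45.1 marks the transplanted normal marrow and any blood-forming cells left in the host alike. The sources used here state no age, number of animals or pooling. Nothing in the labels says whether the replicates of a group are different mice, so errors and p-values measure the spread between these arrays. In both normal groups the 2 arrays differed in sex-linked signal, as described below, so these were not repeats of the same sample. For the leukemic groups the spread between arrays may be technical.

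CIRBP is a small protein with an RNA recognition motif followed by a glycine-rich tail with arginine-glycine repeats. Mild cold, ultraviolet light and low oxygen raise its transcript in cultured mammalian cells and heat lowers it, the opposite of the classical heat shock genes. In the nucleus it binds messenger RNAs and influences poly(A) site choice and splicing, under stress it moves to cytoplasmic stress granules, and protein released from cells is sensed by the TLR4 and MD-2 receptor complex.

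The promoter is shown because the element through which mild cold acts on mouse Cirbp has been described as the octamer TCCCCGCC, bound by Sp1, a zinc finger factor of GC-rich promoters. The RefSeq window (GRCm38.p6, chr10:80167589-80167888, plus strand) spans 300 bases around an annotated start, which lies near its right end, and capitals mark matches to TCCCCGCC or to GGGCGG, the core of a GC box, on either strand.
Cirbp promoter: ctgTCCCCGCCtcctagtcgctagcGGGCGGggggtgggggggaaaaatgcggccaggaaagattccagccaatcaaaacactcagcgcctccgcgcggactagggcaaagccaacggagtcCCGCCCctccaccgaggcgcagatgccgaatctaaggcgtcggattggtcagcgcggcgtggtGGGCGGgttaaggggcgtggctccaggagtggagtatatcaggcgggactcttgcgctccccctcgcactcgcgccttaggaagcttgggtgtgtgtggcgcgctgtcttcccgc
TCCCCGCC had 1 match, on the plus strand, at position -247 from the start site. GGGCGG had 3 matches, at positions -225, -128 and -65, the middle one on the minus strand and read in the line above as CCGCCC, and none overlapped the octamer. Of 32851 RefSeq promoter windows of 300 bases, 1768 (5.38%) held TCCCCGCC and 11714 (35.7%) held GGGCGG. The window of the second annotated Cirbp start held 0 matches to the octamer and 4 to GGGCGG. These matches describe letters only, and binding was not measured in these samples.

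Cirbp had 11.15 and 11.22 log2 units in HSC from leukemic mice, against 10.47 and 10.46 in HSC from normal mice. In KSL it had 10.98 and 11.03 in leukemic mice, against 9.96 and 9.97 in normal mice. The arrays of leukemic and of normal mice did not overlap in either population, and the 2 arrays of each group lay within 0.07 of each other or closer. The means were 11.18 ± 0.05 in HSC from leukemic mice and 10.46 ± 0.01 in HSC from normal mice (SD, n = 2 each). They were 11.01 ± 0.03 in KSL from leukemic mice and 9.97 ± 0.01 in KSL from normal mice (SD, n = 2 each).

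**Figure D1:**
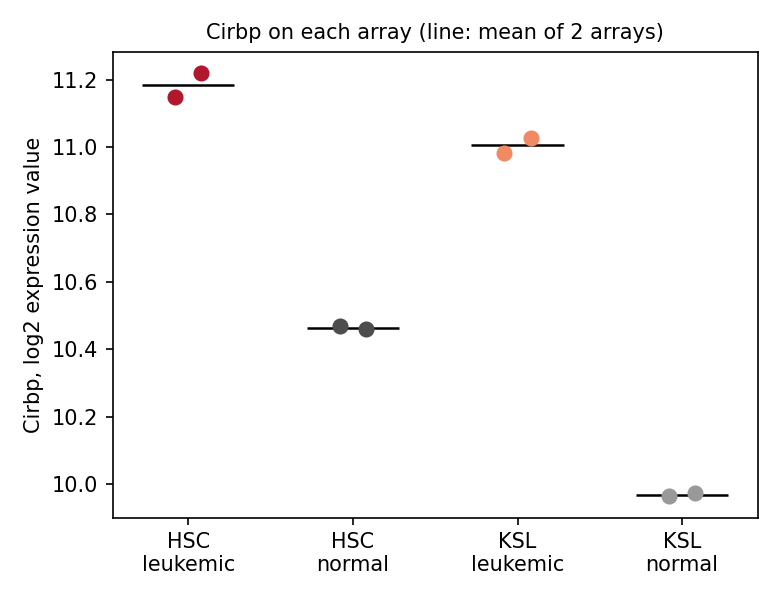
Log2 expression value of Cirbp on each of the 8 arrays (points, y axis) in the 4 groups (x axis), with the group mean as a horizontal line, on an axis that does not start at 0. The leukemic arrays sit between 10.98 and 11.22, above the normal arrays, which sit between 9.96 and 10.47.

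Leukemic minus normal was 0.72 ± 0.04 log2 units in HSC (SE of the fit, n = 2 arrays a group), a 1.65-fold higher level, and the gaps between single arrays ran from 0.68 to 0.76. In KSL the same difference was 1.04 ± 0.04 (SE, n = 2 a group), a 2.05-fold higher level, with gaps from 1.01 to 1.06. The HSC difference minus the KSL difference was -0.32 ± 0.05 (SE), so the KSL difference was the larger. Among 18193 genes, 1004 (5.52%) had a larger positive difference than Cirbp in HSC and 125 (0.687%) had a larger one in KSL. In bulk arrays a change in the level per cell and a change in the share of cells that hold the transcript cannot be told apart.

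HSC minus KSL was 0.18 ± 0.04 in leukemic mice (SE, n = 2 a group; 1.13-fold) and 0.50 ± 0.04 in normal mice (1.41-fold). The order of the groups was HSC from leukemic mice, KSL from leukemic mice, HSC from normal mice and KSL from normal mice, from high to low. The closest neighbours were both leukemic groups, whose nearest arrays were 0.12 apart, against 0.07 and 0.05 between replicates of the HSC and KSL group. KSL from leukemic mice lay 0.51 above HSC from normal mice at their nearest arrays, and HSC from normal mice lay 0.49 above KSL from normal mice. Every neighbouring pair was thus further apart than its replicates, the leukemic pair by the narrowest margin.

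The small standard errors rest on a small spread. The standard deviation of Cirbp within groups, pooled over the 4 groups, was 0.03 log2 units. Of the 694 genes with a mean within 0.5 log2 units of the Cirbp mean, 0 had a smaller standard deviation, where the median was 0.20. Cirbp was chosen from these same values, so its small spread may follow in part from the choice. The error of a difference depends on the fit: over the settings tried it ran from 0.04 to 0.17 in HSC and from 0.03 to 0.17 in KSL. The pattern of both leukemic groups above both normal groups was shared by 270 genes (1.48%), and the mirror pattern by 391 (2.15%). The full order of 4 separate groups was shared by 11 genes (0.0605%), Cirbp among them. Of the other 10, Socs3, the feedback inhibitor of cytokine receptors that signal through STAT3, differed by 1.70 in HSC and 1.12 in KSL, and Mettl25 by 1.63 in HSC and 0.47 in KSL. Another 7 were Adprm, Ccdc42os, Gdpd2, Man1a2, Osbpl10, Pgpep1l and Spin1, with differences between 0.27 and 0.88 in HSC and between 0.16 and 0.54 in KSL, and 1 has no proper gene name. These genes were picked after their values were seen.

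The deposited log2 values have a floor at 3.32, and Cirbp lay far above it on every array. Replicate 1 of normal HSC and replicate 1 of normal KSL showed low Xist and high Y-linked signal, as in males, and Cirbp differed between the male-pattern and the other normal array by 0.01 in HSC and by -0.01 in KSL. The difference between 3' and 5' control probes of beta-actin, a measure of RNA integrity and amplification, was -0.42 and -0.50 in HSC from leukemic mice, against -0.37 and -0.38 in HSC from normal mice. It was -0.53 and -0.53 in KSL from leukemic mice, against -0.48 and -0.48 in KSL from normal mice, so it was lower with leukemia in both populations, as Cirbp was higher. The Gapdh control lay higher in HSC from leukemic mice, at 1.19 and 1.03, against 0.78 and 0.83 in HSC from normal mice, as Cirbp did. In KSL it overlapped, at 0.73 and 0.75 in leukemic mice, against 0.89 and 0.74 in normal mice. The Tfrc control was less negative in HSC from leukemic mice, at -0.36 and -0.75, against -2.04 and -1.74 in HSC from normal mice, and more negative in KSL from leukemic mice, at -1.65 and -1.68, against -1.28 and -1.58 in KSL from normal mice. The part of these features in the Cirbp values was not tested.

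Markers of the sorted cells and of cells that could be mixed with them were read from 11 lists. Cd48, whose protein the HSC gate leaves out, was at 6.19 to 8.12 in HSC and 10.17 to 10.44 in KSL, and Slamf1, the CD150 gene, was at 8.23 to 9.36 in HSC and 5.27 to 7.06 in KSL, which fits the labelled gates in direction. The mean of 8 measured stem cell and gate genes was 9.08 and 8.99 in HSC from leukemic mice, against 9.64 and 9.66 in HSC from normal mice, and 7.25 and 6.94 in KSL from leukemic mice, against 7.76 and 7.77 in KSL from normal mice. This mean was thus below the normal arrays in both populations, opposite to Cirbp, but several of its genes overlapped. In HSC these were Mecom, Ptprc and Kit, with Kit at 0.11 leukemic minus normal, and in KSL they were Procr and Slamf1. The mean of Mpo, Elane, Ctsg and Prtn3, granule genes of myeloid progenitors, was 9.80 and 10.23 in HSC from leukemic mice, against 7.51 and 8.40 in HSC from normal mice, and 13.22 and 13.12 in KSL from leukemic mice, against 12.73 and 12.91 in KSL from normal mice. The mean of 4 mast cell genes lay the same way without overlap, with leukemic minus normal at 0.97 in HSC and 1.75 in KSL. Among them Cpa3 overlapped in HSC, and the KSL differences were uneven. They were 2.95 for Cma1, 2.38 for Fcer1a, 1.34 for Tpsb2 and 0.31 for Cpa3. The mean of 8 neutrophil and monocyte genes also lay higher with leukemia, at 8.35 to 9.24 over the 4 leukemic arrays, against 5.58 to 8.35 over the 4 normal arrays. These means did not overlap within either population, but several of the genes did. In HSC, Ltf and Ngp overlapped and Mmp9 lay below, and in KSL, S100a8, S100a9, Camp, Ngp and Mmp9 overlapped. The 2 arrays of normal HSC were themselves far apart, with means of 8.35 and 5.58. By their means, 3 lists lay above in both populations and 2 below in both. Limma passed 0 single markers at an adjusted p of 0.05, where it passed 18 of 18193 genes (0.0989%) in HSC and 8 (0.044%) in KSL. Of the markers, 0 were at the floor on every array. Their part in the Cirbp values was not tested.

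With the probe set of highest mean, none of the 6 genes nearest to Cirbp on chromosome 10 had a higher mean in leukemic mice in both populations. In the order of the RefSeq annotation, Cbarp, Atp5d and Midn lie on one side and Fam174c, Efna2 and Pwwp3a on the other. The limma fit over 18193 genes passed 18 genes in HSC (0.0989%) and 8 in KSL (0.044%), and 0 of these 6 neighbours in either. Of the 6, 0 had an unadjusted limma p under 0.05, where 2505 of 18193 genes did in HSC and 1445 in KSL. Midn, a nuclear protein that helps bring substrates to the proteasome, differed by 0.10 ± 0.24 in HSC and -0.31 ± 0.24 in KSL (SE, limma adjusted p = 0.948 and 0.958). Fam174c differed by -0.08 in HSC and 0.26 in KSL, and Atp5d, a subunit of mitochondrial ATP synthase, by -0.30 in HSC and -0.19 in KSL. Cbarp, an inhibitor of voltage-gated calcium channels, had the widest difference, 1.84 ± 0.79 in HSC (SE, limma adjusted p = 0.414) and -0.53 in KSL. Its arrays were 8.90 and 11.13 in HSC from leukemic mice, against 8.61 and 7.75 in HSC from normal mice, so most of that difference came from 1 leukemic array, and its other probe set gave 0.27. Efna2, a membrane-bound ephrin ligand, differed by 0.24 in HSC and -0.05 in KSL, and its other probe set was higher in both, by 1.64 in HSC and 0.07 in KSL. Pwwp3a differed by -0.81 in HSC and -0.33 in KSL.

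**Figure D2:**
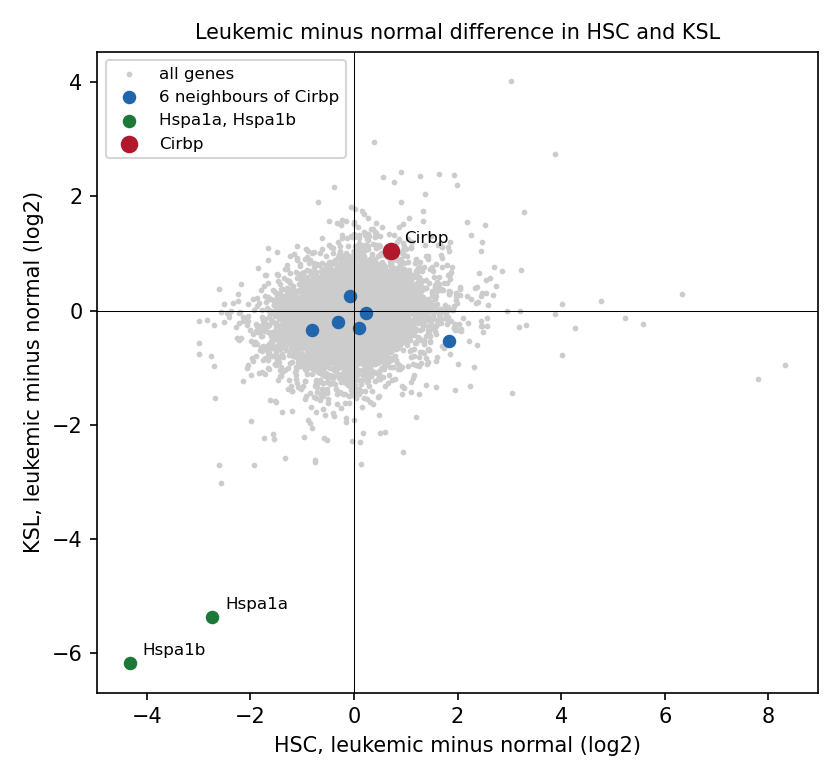
Leukemic minus normal difference in log2 units in HSC (x axis) and in KSL (y axis) for 18193 genes (grey points), with Cirbp in red, its 6 neighbours on chromosome 10 in blue and Hspa1a and Hspa1b, described with the heat shock genes, in green. Cirbp lies at 0.72 and 1.04, in the upper right, and none of the neighbours lies beside it.

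Genes with the pattern most like Cirbp were ranked by Pearson's r over the 8 arrays among 12614 named genes that were above the floor on every array and spanned at least 0.5 log2 units. The 5 most alike were Pgpep1l (r = 0.97), Dtd2 (0.92), Ddx10 (0.91), Socs3 (0.90) and Mcfd2 (0.89), and the 5 most opposite were Ncoa3 (-0.98), Pds5b (-0.97), Tob1 (-0.94), Tvp23b (-0.93) and Kctd21 (-0.93). The 8 points fall into 4 groups and share arrays and normalization, so r describes likeness and carries no test.

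Socs3 had 8.49 and 8.88 log2 units in HSC from leukemic mice, against 7.11 and 6.87 in HSC from normal mice, and 7.32 and 7.35 in KSL from leukemic mice, against 6.27 and 6.17 in KSL from normal mice. Its differences were 1.70 ± 0.16 in HSC (SE, limma adjusted p = 0.0819) and 1.12 ± 0.16 in KSL (adjusted p = 0.215). Its arrays separated by disease in both populations without passing the test, and 1 of its other 2 probe sets gave 0.11 in HSC and 1.58 in KSL. Ddx10, a helicase of ribosome assembly, had 8.70 and 8.75 in HSC from leukemic mice, against 8.35 and 8.36 in HSC from normal mice, and 8.74 and 8.88 in KSL from leukemic mice, against 8.37 and 8.12 in KSL from normal mice. Its other probe set gave 0.54 in HSC and 0.55 in KSL, beside 0.37 and 0.56 from the one used. Dtd2, which removes wrongly charged amino acids from transfer RNA, had differences of 0.94 in HSC and 1.06 in KSL with the probe set used, close in size to those of Cirbp. Its 2 other probe sets gave 0.50 and -0.41 in HSC and 0.38 and 0.19 in KSL.

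Tob1, an antiproliferative protein that recruits the deadenylase complex to messenger RNA, had 4.81 and 4.81 in HSC from leukemic mice, against 5.48 and 5.59 in HSC from normal mice, and 4.66 and 4.32 in KSL from leukemic mice, against 6.06 and 5.97 in KSL from normal mice. Its differences were -0.73 ± 0.12 in HSC (SE, limma adjusted p = 0.143) and -1.53 ± 0.12 in KSL (adjusted p = 0.0993), with the wider one in KSL as for Cirbp, while its other probe set gave -0.01 in HSC and 0.06 in KSL. Ncoa3, a coactivator of nuclear receptors, differed by -0.42 in HSC and -0.60 in KSL, and Pds5b, a regulator of cohesin, by -0.65 in HSC and -0.70 in KSL. The other probe set of Ncoa3 gave 0.08 in HSC and -0.22 in KSL. The 2 others of Pds5b gave 0.05 and -0.72 in HSC and -0.22 and 0.48 in KSL. None of the 10 genes passed limma in HSC or KSL, where the smallest adjusted p was 0.0819, although leukemic and normal arrays of all 10 were apart in both populations, a separation that the ranking favours. Of 9 other probe sets for 6 of these genes, 4 had the same sign as the one used in both populations.

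**Figure D3:**
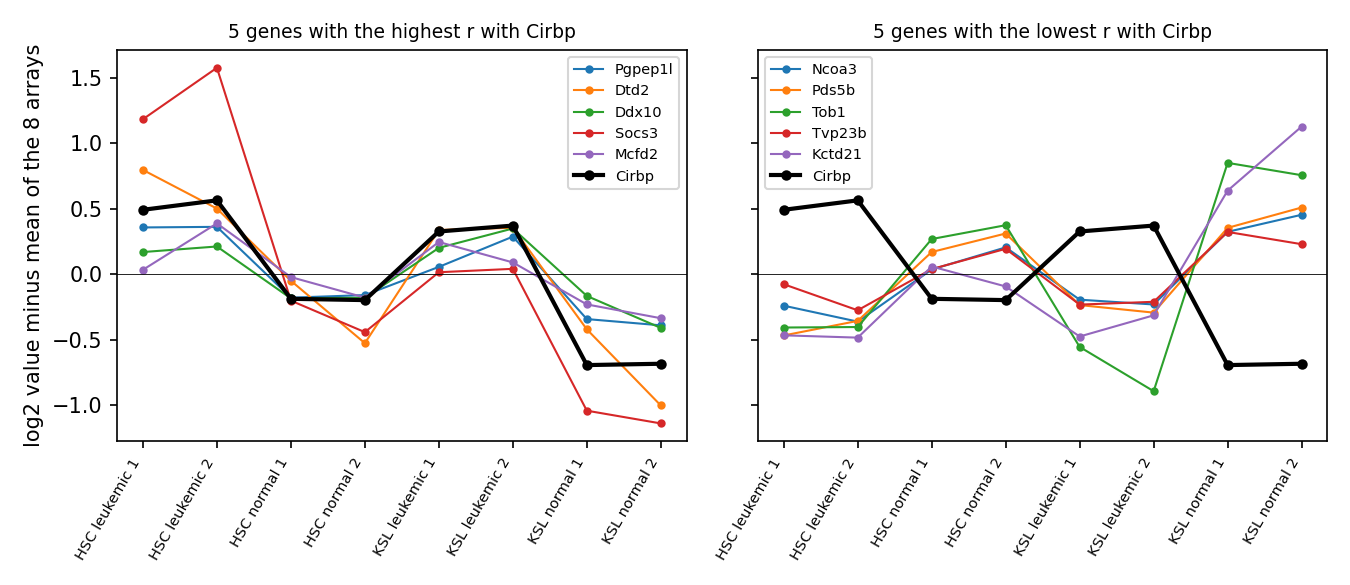
Log2 values of Cirbp and of the genes whose pattern over the 8 arrays was most like it or most opposite to it, each centred on its own mean over the arrays, with the arrays on the x axis grouped by population and disease. Alike genes (r from 0.89 to 0.97) lie high where Cirbp lies high, and opposite genes (r from -0.98 to -0.93) lie low there.

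The wider biology of Cirbp was read from 10 gene lists with 129 entries, of which 117 had a probe set with a single symbol. Limma passed 0 of 117 in HSC and 0 of 117 in KSL after adjustment over all genes, where 0.0989% and 0.044% of all genes passed. Of the 117, 16 in HSC and 15 in KSL had an unadjusted p under 0.05. Over all 18193 genes, 2505 had an unadjusted p under 0.05 in HSC and 1445 in KSL. The share among list members was thus close to that of all genes in HSC and higher in KSL, which was not tested. The median difference of the list members was -0.05 in HSC and 0.00 in KSL, where all genes had 0.00 in both. Members with both leukemic arrays above both normal arrays numbered 17 in HSC and 36 in KSL, and those below numbered 30 and 35. Over all genes the share above was 16% in HSC and 20.5% in KSL, and the share below 16.7% and 24.1%. In every list below, no member passed limma, and values are given without a call. Probe sets of a gene often disagreed: of 66 other probe sets for 23 of the 30 list genes named by rule, 35 had the sign of the one used in both populations, and for 7 genes all did.

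**Figure D4:**
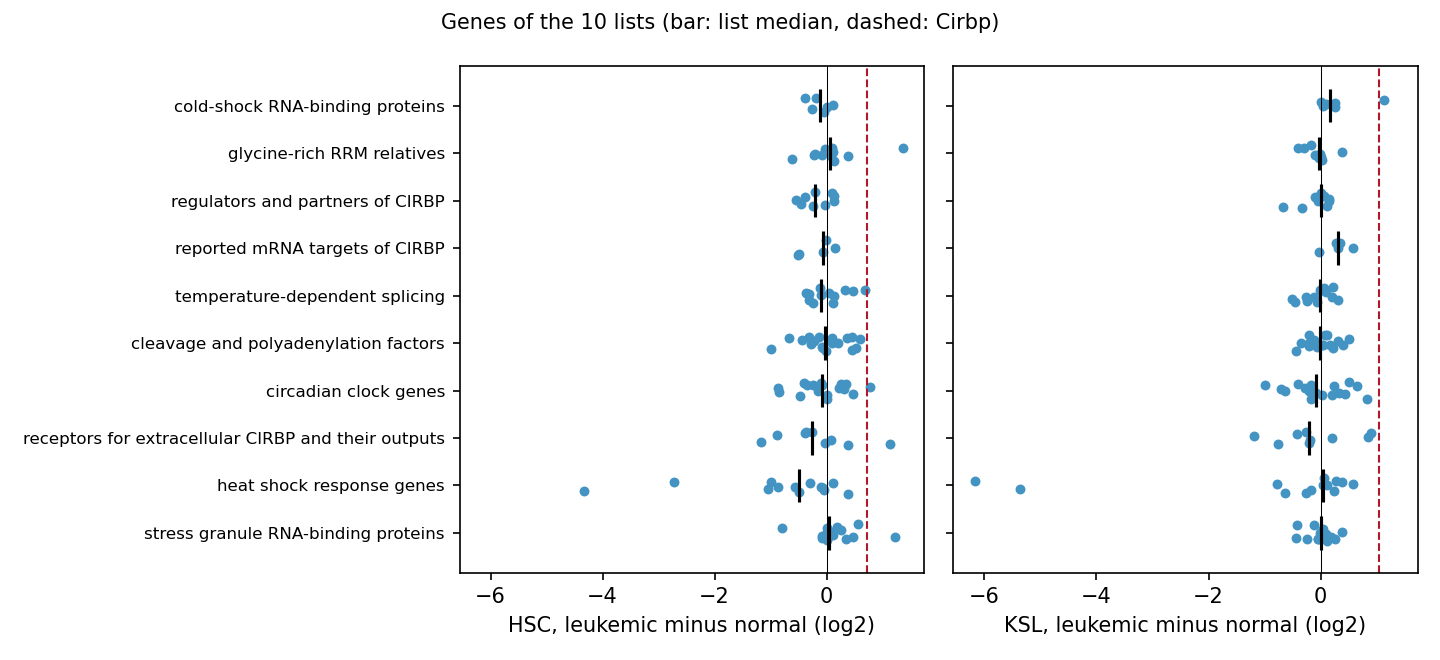
Leukemic minus normal difference in log2 units (x axis) of each measured member (points) of the 10 lists, set one above the other, in HSC (left panel) and KSL (right panel), with list medians as black bars and Cirbp as a dashed line at 0.72 and 1.04. List medians lie between -0.50 and 0.06 in HSC and between -0.21 and 0.32 in KSL, and the points far to the left are Hspa1a and Hspa1b.

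Cold-shock proteins and close relatives come first. Rbm3, the nearest relative of Cirbp, is not analysed here, because its 2 probe sets carry a second symbol. The 6 other measured cold-shock domain and related proteins had a median of -0.12 in HSC and 0.18 in KSL, with 1 of 6 and 5 of 6 higher in leukemic mice. Ybx1, an abundant cold-shock domain protein that packages messenger RNA, differed by 0.11 ± 0.12 in HSC and 0.26 ± 0.12 in KSL (SE, limma adjusted p = 0.769 and 0.75). Lin28a, which blocks maturation of let-7 microRNAs, had 5.92 and 5.51 in KSL from leukemic mice, against 4.95 and 4.22 in KSL from normal mice (limma adjusted p = 0.42), and lay at or next to the floor in HSC from leukemic mice. Carhsp1, a cold-shock domain protein that stabilises TNF messenger RNA, differed by -0.40 in HSC and 0.10 in KSL.

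Among 12 relatives with an RNA recognition motif, medians were 0.06 in HSC and -0.03 in KSL. Hnrnpdl, a splicing factor, had the most similar direction, with 11.87 and 11.93 in HSC from leukemic mice, against 11.34 and 11.69 in HSC from normal mice, and 11.76 and 11.92 in KSL from leukemic mice, against 11.46 and 11.48 in KSL from normal mice. Its differences of 0.38 in HSC and 0.37 in KSL had limma adjusted p = 0.316 and 0.585. Tra2a, a splicing activator, lay the other way, by -0.63 in HSC and -0.40 in KSL. Members of this group therefore stood on both sides of their normal level.

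Factors known to act on CIRBP had medians of -0.20 in HSC and 0.00 in KSL over 9 measured genes. Sp1, shown for its link to the promoter octamer and chosen after its values were seen, had 9.69 and 9.65 in KSL from leukemic mice, against 9.64 and 9.38 in KSL from normal mice. Its difference was -0.03 ± 0.19 in HSC, where its arrays overlapped, and 0.16 ± 0.19 in KSL (SE, limma adjusted p = 1 in both). Dyrk1b, a kinase that binds CIRBP in mouse testis, differed by -0.55 in HSC and -0.67 in KSL. Tnpo1, a nuclear import receptor for CIRBP, differed by -0.39 in HSC and 0.11 in KSL, and Prmt1, which methylates its arginine-glycine repeats, by 0.09 in HSC and 0.15 in KSL.

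Of 5 transcripts reported as bound by CIRBP in human or rodent cells, 1 was higher in HSC from leukemic mice and 4 in KSL from leukemic mice, with medians of -0.07 and 0.32. Those 4 were Hif1a, Atr, Clock and Rpa2, and each had both KSL arrays of leukemic mice above both of normal mice, against 20.5% of all genes. Hif1a, the oxygen-regulated transcription factor, had 8.83 and 9.04 in KSL from leukemic mice, against 8.34 and 8.36 in KSL from normal mice, and differed by 0.58 ± 0.34 (SE, limma adjusted p = 0.86). In HSC it differed by -0.51 ± 0.34 (SE, limma adjusted p = 0.595). Of its 3 other probe sets, 1 was higher in HSC from leukemic mice and 3 in KSL. Atr, the replication stress kinase, differed by 0.35 in KSL and 0.14 in HSC, and Clock, a core circadian activator, by 0.32 in KSL and -0.07 in HSC. Both other probe sets of Atr were lower in HSC, at -0.68 and -0.26, and higher in KSL, at 0.12 and 0.10. Rpa2, a subunit of the single-strand DNA binding complex, differed by 0.27 in KSL and -0.49 in HSC (limma adjusted p = 0.788 and 0.246). Txn1, thioredoxin, chosen after its values were seen, differed by -0.02 in both.

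Processing of RNA ends and exons gave mixed values. Among 18 cleavage and polyadenylation factors the medians were -0.04 in HSC and -0.02 in KSL. Nudt21, the CFIm subunit that binds the UGUA signal, had 10.77 and 10.74 in HSC from leukemic mice, against 10.31 and 10.28 in HSC from normal mice, and 10.93 and 11.06 in KSL from leukemic mice, against 10.78 and 10.59 in KSL from normal mice. Its differences were 0.46 ± 0.08 in HSC and 0.31 ± 0.08 in KSL (SE, limma adjusted p = 0.152 and 0.468). Of its 3 other probe sets, 2 lay the other way in both populations, the lowest at -1.08 in HSC and -0.43 in KSL. Cpsf6, its partner in the same complex, differed by -0.67 in HSC and 0.52 in KSL, and Cstf2t, a subunit of the cleavage stimulation factor, by 0.60 in HSC and -0.35 in KSL, and the test of the HSC difference minus the KSL difference gave limma adjusted p = 0.311 for Cpsf6 and 0.258 for Cstf2t. With these probe sets the arrays of both genes were apart in both populations, in opposite directions. Cstf2t has no other probe set with its symbol alone, and 3 of the 5 others of Cpsf6 were higher in both populations.

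In the list of CLK kinases and SR proteins, through which body temperature shapes splicing, 13 members had medians of -0.10 in HSC and -0.01 in KSL. Srsf11 differed by 0.68 ± 0.16 in HSC and 0.21 in KSL, and Srsf6 by 0.33 ± 0.09 in HSC and 0.30 in KSL (SE, limma adjusted p = 0.207 and 0.235 in HSC). The other probe sets of Srsf11 ran from -0.18 to 2.19 in HSC and from -0.08 to 0.39 in KSL, and those of Srsf6 from -0.98 to 0.44 in HSC and from -0.27 to 0.35 in KSL. Clk4, a kinase that phosphorylates SR proteins, differed by -0.12 in HSC and -0.51 in KSL. Among 17 circadian clock genes, whose oscillation Cirbp has been reported to sustain in mouse fibroblasts, medians were -0.08 in HSC and -0.07 in KSL. Per3 had 6.24 and 6.85 in HSC from leukemic mice, against 7.19 and 7.63 in HSC from normal mice, and 8.21 and 7.65 in KSL from leukemic mice, against 7.10 and 7.09 in KSL from normal mice, and the limma adjusted p of the HSC minus KSL difference was 0.39. Of its 5 other probe sets, 4 were higher in HSC from leukemic mice and 5 in KSL, so the lower value in HSC is that of the probe set used and of 1 other. Nr1d1, a repressor of the clock loop, differed by -0.48 in HSC and 0.03 in KSL, and Csnk1d, the kinase of PER proteins, by -0.08 in HSC and -0.64 in KSL.

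Receptors for released CIRBP and their products numbered 9, with medians of -0.25 in HSC and -0.21 in KSL. Ly96, the MD-2 co-receptor of TLR4, had 4.94 and 4.22 in HSC from leukemic mice, against 5.95 and 5.54 in HSC from normal mice, and 5.86 and 5.46 in KSL from leukemic mice, against 6.50 and 6.34 in KSL from normal mice. Its differences were -1.17 ± 0.31 in HSC and -0.76 ± 0.31 in KSL (SE, limma adjusted p = 0.236 and 0.667), opposite in sign to Cirbp. Trem1, a receptor on myeloid cells that CIRBP has been reported to bind, differed by -0.04 in HSC and 0.85 in KSL (limma adjusted p = 0.228 in KSL), while its other probe set gave 1.24 in HSC and 0.04 in KSL. Il1b, an inflammatory cytokine downstream of TLR4, differed by 1.13 in HSC and -0.27 in KSL. Among 15 stress granule proteins, medians were 0.05 in HSC and 0.01 in KSL. Ddx6, a helicase of processing bodies, differed by 0.47 ± 0.10 in HSC (SE, limma adjusted p = 0.182) and -0.04 in KSL, and Tardbp, an RNA-binding protein that regulates splicing, by -0.79 in HSC and -0.44 in KSL. Its other probe sets ran from -0.84 to 1.03 in HSC. Ddx3x, an RNA helicase, differed by 0.03 in HSC and 0.19 in KSL, and Tial1, a nucleator of stress granules, by -0.08 in HSC and -0.25 in KSL. Both other probe sets of Ddx3x and all 4 of Tial1 had the same signs.

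Heat shock genes, which heat raises where it lowers Cirbp, held the widest differences of all lists. Hspa1a, an inducible HSP70 gene, was at the floor of 3.32 on both arrays of HSC from leukemic mice, against 6.25 and 5.86 in HSC from normal mice, and at 3.32 on both arrays of KSL from leukemic mice, against 9.76 and 7.60 in KSL from normal mice. It was at least 6.65-fold lower in HSC and at least 41.1-fold lower in KSL from leukemic mice. Leukemic arrays of both populations lay at the bottom of the scale where normal arrays did not.

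Hspa1b, its neighbouring and nearly identical copy, was at 3.32 on both arrays of HSC from leukemic mice, against 8.53 and 6.76 in HSC from normal mice, and at 4.31 and 3.80 in KSL from leukemic mice, against 11.29 and 9.18 in KSL from normal mice. It was at least 20.1-fold lower in HSC and 72.4-fold lower in KSL from leukemic mice. Limma adjusted p was 0.19 in HSC and 0.225 in KSL for Hspa1b and 0.234 and 0.215 for Hspa1a, so neither passed, and the normal arrays themselves differed by up to 2.16 log2 units. Transcripts of one copy can bind probes of the other, so the 2 genes are not separate evidence, and both further Hspa1b probe sets gave differences of -3.30 and -3.21 in HSC and -4.81 and -5.08 in KSL.

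Over the 13 measured heat shock genes the medians were -0.50 in HSC and 0.05 in KSL, and 2 were higher in HSC from leukemic mice and 7 in KSL. Both leukemic arrays lay below both normal arrays for 7 members in HSC and 5 in KSL, and above them for 1 in HSC and 5 in KSL. Over all genes the share below was 16.7% in HSC and 24.1% in KSL, and the share above 16% and 20.5%. Hspa8, the constitutive HSP70 gene, was below in both populations by far less than Hspa1a and Hspa1b, at -0.10 in HSC and -0.17 in KSL. Dnaja1, another HSP40 gene, differed by -0.99 in HSC and -0.26 in KSL, with overlapping arrays in KSL. Dnajb1, an HSP40 partner of HSP70 that heat induces, had 11.35 and 10.85 in HSC from leukemic mice, against 11.25 and 11.08 in HSC from normal mice, and 10.25 and 10.39 in KSL from leukemic mice, against 11.27 and 10.91 in KSL from normal mice. Hsp90aa1, the inducible HSP90 gene, differed by -0.04 in HSC and 0.06 in KSL. Other members went the other way in 1 population. Hsf2, Bag3 and Hspd1 differed by 0.58, 0.38 and 0.28 in KSL, against -1.04, -0.56 and -0.50 in HSC. Hspb1 differed by 0.38 in HSC and -0.64 in KSL. Apart from Hspa1a and Hspa1b, the heat shock genes named here were chosen after their values were seen.

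**Figure D5:**
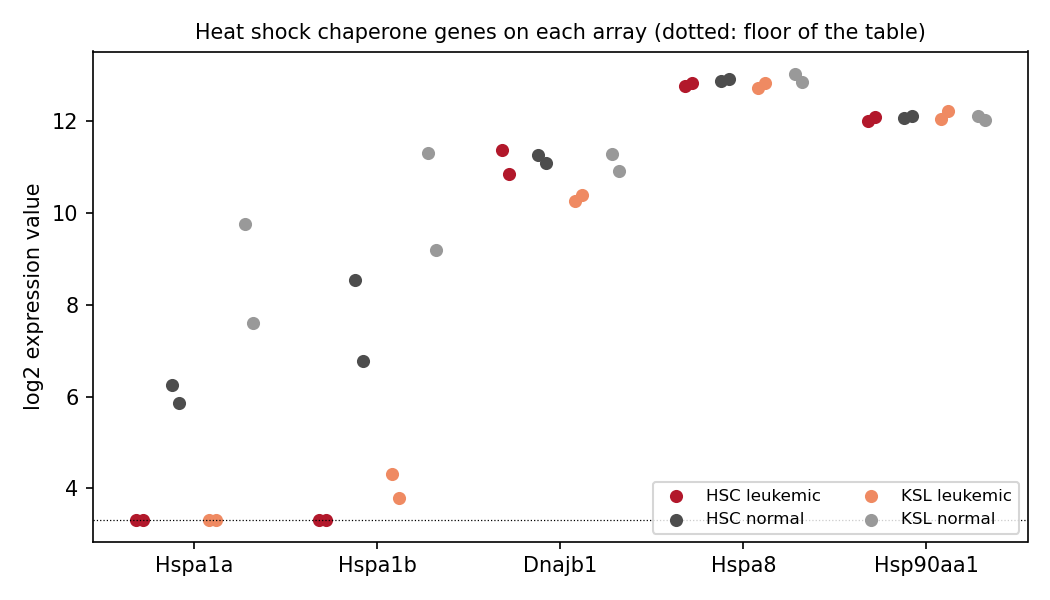
Log2 expression values (y axis) of 5 heat shock chaperone genes (x axis) on each of the 8 arrays (points, coloured by group), with the floor of the deposited values at 3.32 as a dotted line. Hspa1a and Hspa1b lie between 3.32 and 4.31 in leukemic mice and between 5.86 and 11.29 in normal mice, while Hspa8 and Hsp90aa1, drawn for comparison, lie between 11.99 and 13.02 on every array.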

How the data were processed

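The authors deposited 1 table of log2 expression values for 8 Affymetrix arrays. RMA (background correction, quantile normalization and a summary per probe set) is named without a version in the submitters' processing notes. The log2 scale and a floor at 10.0 linear units (3.32), which held 14.9% to 15.8% of probe sets per array, were read from the deposited values, whose array medians lay between 5.74 and 5.86. The design text names a Nugen amplification and the labelling protocol a standard Affymetrix method, so the amplification is not settled. Descriptions that speak of embryos were not used, and KSL from leukemic mice, whose titles carry both wordings, were grouped by disease state label.

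Of 45101 probe sets, 34945 had 1 symbol, 932 several, 9160 none and 64 were controls. RefSeq (GRCm38.p6) matched 34741 by gene identifier and gave names, neighbour order and the promoter. The probe set with the highest mean stood for each of 18193 genes. Values were fitted with limma 3.58.1 (lmFit and eBayes in R 4.3.3, a mean for each group, 0.67 prior and 4 residual degrees of freedom). Tests were two-sided, and p-values were adjusted after Benjamini and Hochberg over all genes, with a threshold of 0.05. The fit was tested on simulated data. Named genes were Cirbp, from each list the passing members or else the 2 with the smallest p in HSC and in KSL, the 5 most alike and 5 most opposite by r, and 3 neighbours on each side; others are stated as chosen later. Cirbp and the lists were chosen with earlier results of these data known. Levels were not compared between probe sets, and precision is limited by the number of arrays. Alternatives were 2 scalings, array weights, each population alone, each array left out, sex terms, probe set means, a filter on dim genes and a replicate block. Further steps used matplotlib 3.10.9, numpy 2.4.6, pandas 2.3.3 and Python 3.11.15.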

Additional observations from a re-analysis of the deposited data

How the results depend on the processing

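Cirbp kept its sign in every comparison under every alternative, but several alternatives could not have changed it. The groups did not overlap, nor did the HSC and KSL gaps between single arrays, so leaving out arrays could not reverse a sign. The replicate block, each population alone and the array weights, which were equal within each group, return the same group differences by design. With arrays shifted to a common median, leukemic minus normal was 0.77 in HSC and 1.10 in KSL, and HSC minus KSL was 0.13 in leukemic and 0.47 in normal mice. Cyclic loess gave 1.07 in KSL. Without the male-pattern arrays, HSC minus KSL in normal mice was 0.49. Leaving out 1 array at a time gave 0.68 to 0.76 in HSC, 1.01 to 1.06 in KSL, -0.35 to -0.28 for the HSC minus KSL difference, and 0.14 to 0.22 and 0.49 to 0.50 for HSC minus KSL in leukemic and normal mice. Same-numbered arrays did not deviate together (correlations from -0.04 to 0.09 over 6 group pairs), and the labels state no pairing, so the numbers were not taken as pairs. Replicate 1 of both normal groups also shared the male pattern. With the replicate block, Cirbp differed by 0.72 in HSC and 1.04 in KSL, the HSC minus KSL difference was -0.32, and 0 list members passed.

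List members passing limma ranged from 0 to 4 in HSC and from 0 to 1 in KSL when 1 array was left out. Without replicate 2 of HSC from leukemic mice these 4 were Rbmx, Srsf11, Taf15 and Elavl1, without replicate 1 of HSC from normal mice there was 1, Cpsf2, and without replicate 2 of KSL from normal mice 1, Hspa1a. Each such group then has 1 array, assumed to vary like the other groups. Over all genes, the 18 calls in HSC became 2 with array weights, 11 with means of probe sets, 0 with HSC arrays alone, a sex term, no male-pattern arrays or the replicate block, and 0 to 257 with 1 array left out. The 8 calls in KSL became 1 with the common median, 125 with array weights, 2 without the lowest 40% of genes, 0 with KSL arrays alone, a sex term, no male-pattern arrays or the block, and 0 to 6 with 1 array left out. The cause of these changes was not tested. Another Cirbp probe set, or a mean of several, could not be tried, since there is 1. Signals at the floor limit the heat shock folds to bounds.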
